A study of Mus musculus with 32 samples.

Results

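The muscarinic acetylcholine, serotonin, dopamine and adrenergic receptor genes were taken by name from a bulk RNA-seq table of mouse hippocampus, as the protein-coding rows called Chrm1 to Chrm5, Htr1 to Htr7 with their subtype letters, Drd1 to Drd5, Adra1 or Adra2 with their subtype letters, and Adrb with their subtype numbers. This gave 33 genes of 54532 rows, by a rule on names that uses no measured value but was set with earlier results of these data known. Of the 33 genes, 30 had enough reads to be tested among 16723 genes, and Drd3, Htr2b and Htr3b were too low to judge. The 32 libraries fell into 4 groups of 8 mice, with 4 females and 4 males in each group. All mice were 12 months old. The 5xFAD/D-45113 group carried human transgenes with familial Alzheimer's disease mutations, driven in neurons by Thy1 regulatory sequences, and was injected intraperitoneally with D-45113, a CSF1R kinase inhibitor attached to a hydroxyl dendrimer. The 5xFAD/Veh group had the same transgenes and received the hydroxyl dendrimer without the inhibitor. The WT/D-45113 and WT/Veh groups lacked the transgenes and received D-45113 or the dendrimer, so every mouse received dendrimer.

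These receptors carry the signals of the diffuse modulatory systems of the brain. Acetylcholine reaches the hippocampus from the septum, serotonin from the raphe, noradrenaline from the locus coeruleus, and dopamine from the midbrain. All of the receptors are coupled to G proteins, apart from Htr3a and Htr3b, which form a ligand-gated cation channel. Receptors coupled to Gq (Chrm1, Chrm3, Chrm5, the Htr2 and Adra1 genes) raise phospholipase C activity, those coupled to Gi (Chrm2, Chrm4, the Htr1 and Adra2 genes, Drd2 to Drd4) lower cyclic AMP, and those coupled to Gs (Htr4, Htr6, Htr7, Drd1, Drd5, the Adrb genes) raise it.

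Total gene counts ranged from 10707410 to 30368498 a library, and 5xFAD/D-45113 mice 3F and 4F had the lowest 2 totals. Xist and Ddx3y matched the labelled sex in 32 of 32 libraries, and Cst7, a microglial gene of amyloid models, was above every WT library in 16 of 16 5xFAD libraries. Thy1, whose regulatory sequences the transgenes carry, was above every WT library in 14 of 16. Marker genes of regions next to the hippocampus varied from mouse to mouse. The score of 12 striatal markers, which held none of the receptor genes, was under -2 on a centred log2 scale in 5xFAD/D-45113 mice 2F, 2M and 3M and in WT/D-45113 mouse 3M. The score of 8 habenula markers was over 3 in 5xFAD/D-45113 mice 4F and 2M and in WT/Veh mouse 2M. The score of 12 thalamic markers averaged 0.83 ± 0.90 in 5xFAD/D-45113 mice and -0.88 ± 0.77 in 5xFAD/Veh mice (SD, n = 8 each), with an adjusted p of 0.0186 by a 2-sided exact permutation test over 60 comparisons of a marker list. In the same comparison the habenula score differed by 1.67 (adjusted p = 0.0186), the microglial score by -0.60 (adjusted p = 0.02) and the astrocyte score by 0.20 (adjusted p = 0.0429), by the same exact test. Of 12 microglial markers 4 were called lower, and of 10 astrocyte markers 3 were called higher. The part of these scores in the receptor differences was not tested unless a fit with a score is given. Of the 60, 10 were past 0.05. In bulk tissue, fewer cells of a type and less RNA in each cell cannot be told apart.

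The promoters of 4 receptor genes called in 5xFAD/D-45113 against 5xFAD/Veh mice are shown because these genes differed in opposite directions: Chrm4 and Htr6 were lower and Htr2c and Htr7 were higher. Chrm1, which was also lower, had no matched promoter entry. Each sequence runs 5′ to 3′ on the strand of the gene, from 250 bases before the RefSeq start to 50 bases from the start on, in build GRCm38.p6. Capitals mark GC boxes (GGGCGG or its reverse complement CCGCCC) and cyclic AMP response half-sites (TGACG or CGTCA), with overlapping matches run together. The Chrm4 promoter lay at chr2:91921939-91922238 on the plus strand, that of Htr6 at chr4:139075521-139075820 on the minus strand, that of Htr2c at chrX:146962263-146962562 on the plus strand, and that of Htr7 at chr19:36057311-36057610 on the minus strand.
Chrm4: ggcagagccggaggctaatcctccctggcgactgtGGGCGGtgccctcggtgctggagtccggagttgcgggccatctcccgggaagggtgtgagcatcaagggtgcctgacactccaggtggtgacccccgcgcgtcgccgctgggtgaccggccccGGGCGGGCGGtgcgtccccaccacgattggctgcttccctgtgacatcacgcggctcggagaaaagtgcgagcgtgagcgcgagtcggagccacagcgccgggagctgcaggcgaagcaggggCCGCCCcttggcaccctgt
Htr6: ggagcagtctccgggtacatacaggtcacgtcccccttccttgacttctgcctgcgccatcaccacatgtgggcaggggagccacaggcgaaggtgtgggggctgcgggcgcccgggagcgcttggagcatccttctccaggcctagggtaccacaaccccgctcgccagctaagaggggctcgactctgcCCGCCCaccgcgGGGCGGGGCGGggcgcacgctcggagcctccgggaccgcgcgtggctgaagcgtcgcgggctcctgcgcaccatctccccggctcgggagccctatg
Htr2c: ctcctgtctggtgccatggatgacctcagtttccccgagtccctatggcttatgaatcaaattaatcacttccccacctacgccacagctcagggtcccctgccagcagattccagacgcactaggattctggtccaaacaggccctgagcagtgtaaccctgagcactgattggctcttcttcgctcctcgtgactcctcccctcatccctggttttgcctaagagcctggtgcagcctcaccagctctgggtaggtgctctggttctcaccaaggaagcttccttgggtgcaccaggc
Htr7: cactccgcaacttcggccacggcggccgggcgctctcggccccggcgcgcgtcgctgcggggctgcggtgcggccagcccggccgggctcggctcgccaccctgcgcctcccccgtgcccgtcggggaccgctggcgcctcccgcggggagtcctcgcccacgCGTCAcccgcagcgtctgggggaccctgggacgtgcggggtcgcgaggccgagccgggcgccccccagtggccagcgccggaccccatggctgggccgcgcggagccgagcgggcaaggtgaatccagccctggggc
The windows shown for Chrm4 and Htr6 held 4 and 3 GC boxes, those for Htr2c and Htr7 held none, and that for Htr7 held 1 half-site. A second Htr6 entry, from another RefSeq start, held 0 GC boxes. Whether these motifs go with the direction of the differences was not tested. A GC box was present in 17 of 29 promoter entries of the receptor genes (58.6%) and in 35.66% of all 32851 entries of the same length, counted on both strands. The half-site was present in 3 of 29 entries (10.3%) and in 20.81% of all entries. RefSeq promoter entries were matched for 25 of the 33 genes. The deposited Chrm4 model was 1 exon of 1440 bases whose start lay 5060 bases from the RefSeq start, so any reads from an exon at the RefSeq start lay outside it.

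All 33 genes had an entry in the GENCODE M21 annotation. Exon bases were shared with another gene in 7 of them: Chrm1, Adra1d, Htr1b, Chrm2, Drd5, Adrb3 and Htr2b. The largest overlaps were 1531 bases of Drd5 with Gm26560, 852 bases of Htr1b with D430036J16Rik and 839 bases of Adrb3 with Gm45470. Whether counting used strand is not given in the sources used here, so reads in these overlaps cannot be assigned with certainty.

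Levels were compared between genes as FPKM, which divides by gene length. The mean over 32 libraries was 10 FPKM or more for 6 genes, 1 to 10 FPKM for 17, 0.1 to 1 FPKM for 8 and under 0.1 FPKM for 2. The highest were the dopamine receptors Drd2 (mean 44.8 FPKM) and Drd1 (28.1 FPKM), followed by Chrm1 (26.6 FPKM), Adra1d (21.7 FPKM), Chrm4 (20.3 FPKM) and Adra2c (17.5 FPKM), as means over all 4 groups. Drd2 had the highest mean in each group. Drd1 was at rank 4 in 5xFAD/D-45113 mice (13.3 FPKM) and rank 3 in 5xFAD/Veh mice (29.4 FPKM). It was at rank 4 in WT/D-45113 mice (23.5 FPKM) and rank 2 in WT/Veh mice (46.3 FPKM). Single mice could differ from this order. In 5xFAD/D-45113 2F, 2M and 3M, Drd2 had 1.297, 4.795 and 4.048 FPKM, and Chrm1 had 25.68, 12.34 and 29.43 FPKM. In WT/D-45113 3M, Drd2 had 6.378 FPKM and Chrm1 had 35.22 FPKM. These are the libraries of striatal score under -2. Drd2 and Drd1 followed that score across mice, as given below. The part of the score in the ranks was not tested. The order did not separate neighbours: in 5xFAD/D-45113 mice the gap between neighbouring means was within 1 SD for 31 of 32 steps, in 5xFAD/Veh and WT/D-45113 mice for 29 of 32 each, and in WT/Veh mice for 32 of 32.

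**Figure D1:**
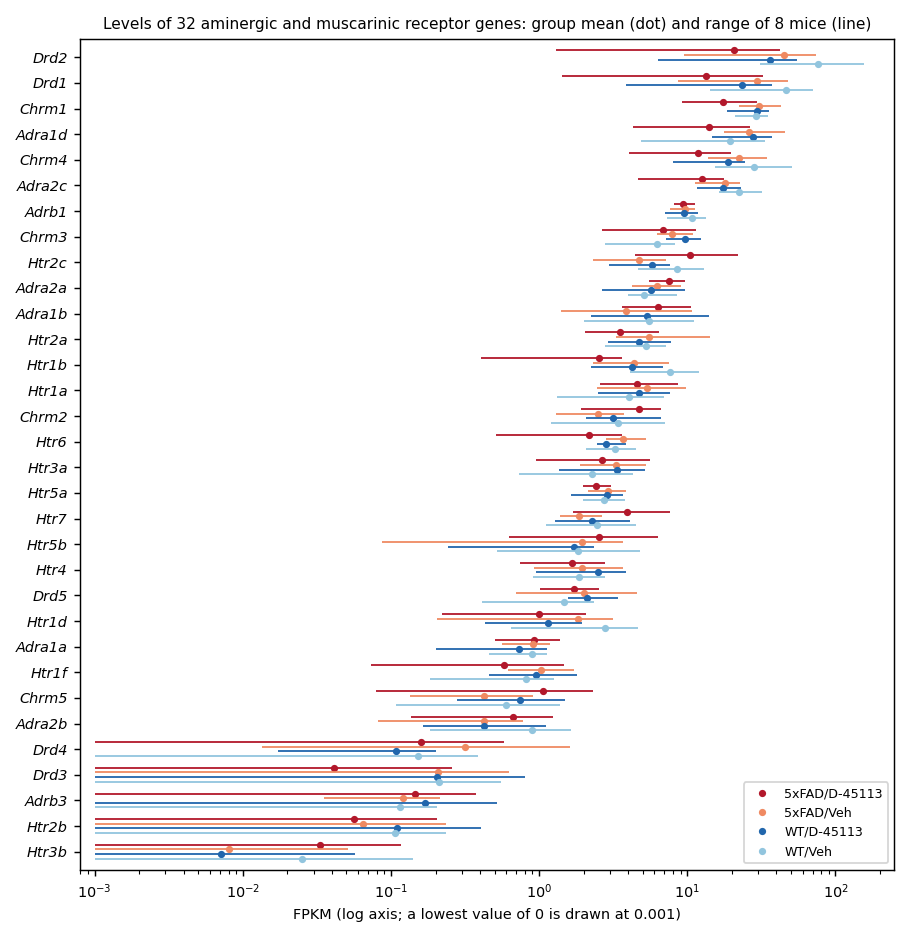
Level of 32 of the 33 receptor genes in FPKM on a log axis, with the mean of 8 mice as a dot and the lowest and highest mouse as a line, for 5xFAD/D-45113, 5xFAD/Veh, WT/D-45113 and WT/Veh mice from top to bottom within each gene. Drd2 and Drd1 had the highest means over all mice (44.8 and 28.1 FPKM) and wide ranges, and Htr3b was the lowest (0.018 FPKM). Drd2 and Drd1 were lowest in the libraries of striatal score under -2.

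The middle range held receptors of each transmitter. Adrb1, the main beta receptor of forebrain neurons, had a mean of 9.80 FPKM, Chrm3 had 7.63 FPKM, Htr2c had 7.38 FPKM, Adra2a, an autoreceptor of noradrenergic cells, had 6.15 FPKM, and Adra1b had 5.26 FPKM. Htr2a (4.76 FPKM), Htr1b (4.70 FPKM) and Htr1a (4.68 FPKM), the last an inhibitory receptor of pyramidal cells, were close together. Chrm2 (3.44 FPKM), Htr6 (2.99 FPKM), Htr3a (2.9 FPKM), Htr5a (2.73 FPKM), Htr7 (2.63 FPKM), Htr5b (2.01 FPKM), Htr4 (1.99 FPKM), Drd5 (1.83 FPKM) and Htr1d (1.69 FPKM) completed the genes over 1 FPKM.

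The genes under 1 FPKM included Adra1a (0.867 FPKM), Htr1f (0.843 FPKM), Chrm5 (0.705 FPKM), Adra2b (0.604 FPKM), Drd4 (0.185 FPKM), Drd3 (0.166 FPKM), Adrb3 (0.138 FPKM), Htr2b (0.084 FPKM) and Htr3b (0.018 FPKM). Drd3, Htr2b and Htr3b did not pass the filter on low counts. Their mean counts over the 32 libraries were 5.41, 3.50 and 0.844, and they were at 0 in 9, 11 and 24 libraries. Drd4 and Adrb3 passed the filter with mean counts of 13.2 and 9.28, at 0 in 2 and 6 libraries, and their fold changes rest on few reads.

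The comparison of 5xFAD/D-45113 with 5xFAD/Veh mice was of mice with and without the inhibitor, in groups that also differed in thalamic and habenula scores. In it, 5 of the 30 receptor genes tested passed an adjusted p of 0.05 (16.7%), against 3.96% of all 16723 genes. Chrm1, Chrm4 and Htr6 fell (3 genes, against 1.75% of all genes called lower) and Htr2c and Htr7 rose (2 genes, against 2.21% called higher). The median log2 fold change of the 30 was -0.24, against 0.01 over all genes. At an unadjusted p under 0.05 there were 15 of 30, 4 higher and 11 lower, against 19.9% of all genes.

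**Figure D2:**
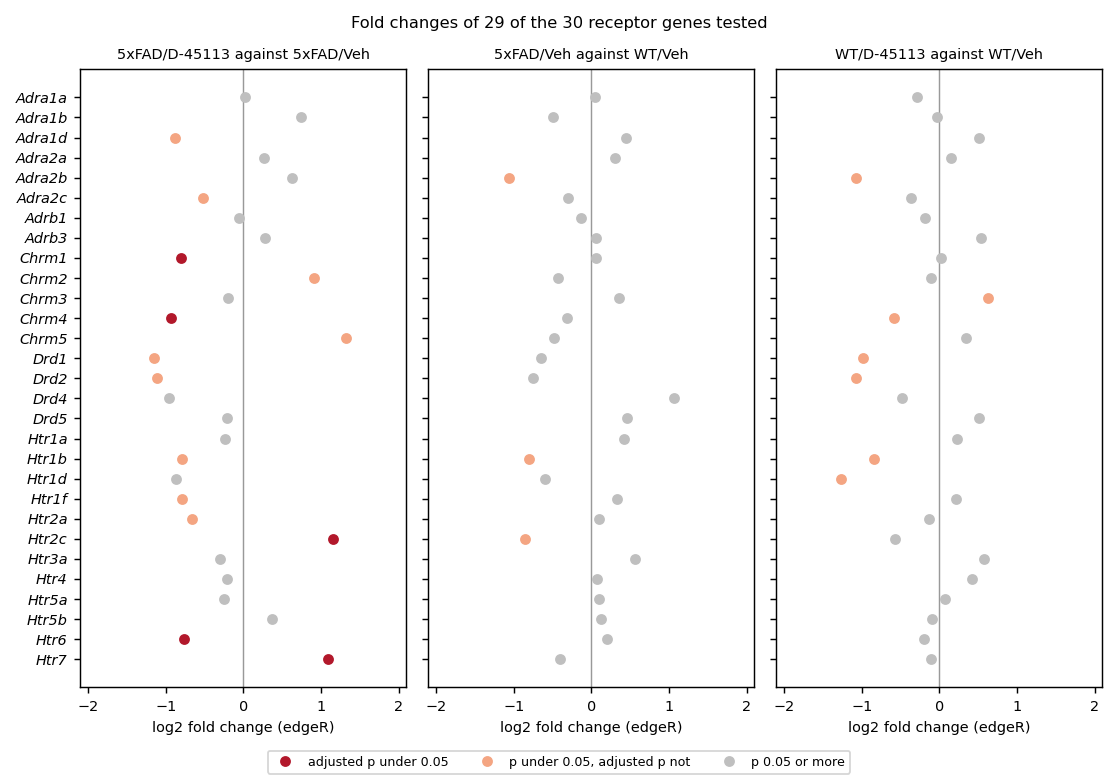
Fitted log2 fold change (edgeR) of 29 of the 30 tested receptor genes in 3 comparisons: 5xFAD/D-45113 against 5xFAD/Veh, 5xFAD/Veh against WT/Veh, and WT/D-45113 against WT/Veh. Dark red points passed an adjusted p of 0.05, orange points passed 0.05 only before adjustment, and grey points passed neither. The 5 dark points are Chrm1, Chrm4, Htr6, Htr2c and Htr7, all in the first panel.

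Chrm1 encodes the M1 receptor, the principal muscarinic receptor of hippocampal pyramidal cells. Its level was 60.1 to 191 CPM (median 99.4) in 5xFAD/D-45113 mice and 143 to 277 CPM (median 187) in 5xFAD/Veh mice. Of the 8 5xFAD/D-45113 mice, 6 lay below every 5xFAD/Veh mouse, and 2F and 3M lay within the range of that group. The log2 fold change was -0.80 ± 0.18 (SE; edgeR, adjusted p = 0.0113). The call held in each of 32 fits that left out 1 library, with an adjusted p of 0.0017 to 0.0293. It was lost with the thalamic score as a covariate (-0.46, adjusted p = 0.381), without the 3 mice of high habenula score (-0.64, adjusted p = 0.0829) and without the 2 libraries of lowest total (-0.66, adjusted p = 0.0576). The score of 7 excitatory neuron markers differed by -0.79 between these groups and did not pass (exact permutation test, adjusted p = 0.113). Of the 7 markers, 0 had a positive fold change and 1 was called lower.

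Chrm4 encodes the M4 receptor, which couples to Gi and is abundant in striatal projection neurons. Its level was 5.82 to 27.5 CPM (median 17.8) in 5xFAD/D-45113 mice and 19.8 to 48.7 CPM (median 31.6) in 5xFAD/Veh mice. The groups overlapped through the 2 highest 5xFAD/D-45113 mice, 1M and 4M. The log2 fold change was -0.94 ± 0.25 (SE; edgeR, adjusted p = 0.0308). Without the 4 libraries of low striatal score it was -0.61 (adjusted p = 0.0914), and with the striatal score as a covariate it was -0.38 (adjusted p = 0.170). The call was also lost, with adjusted p between 0.0507 and 0.0794, when 5xFAD/D-45113 2F, 4F or 2M or 5xFAD/Veh 1F, 3F or 4F was left out.

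Chrm2, the M2 receptor gene and an autoreceptor on cholinergic terminals, had 11.5 to 39.9 CPM (median 29.5) in 5xFAD/D-45113 mice and 7.88 to 22.4 CPM (median 14.6) in 5xFAD/Veh mice. Its log2 fold change of 0.91 ± 0.28 (SE) did not pass (edgeR, adjusted p = 0.0596). It passed when 5xFAD/D-45113 2F (adjusted p = 0.0294) or 3M (0.0432), WT/D-45113 1F (0.0375), or WT/Veh 1F (0.0422) or 3M (0.0416) was left out. In the other 27 of 32 fits without 1 library it did not pass, with adjusted p up to 0.126. In 21 other settings its log2 fold change was 0.38 to 1.20. It passed in 5 of those settings and not in 16, with adjusted p of 0.0225 to 0.754. Chrm5, a low gene that couples to Gq, had 0.122 to 3.61 CPM (median 1.75) in 5xFAD/D-45113 mice and 0.212 to 1.43 CPM (median 0.585) in 5xFAD/Veh mice, with an adjusted p of 0.150. Chrm3 had a median of 41.5 CPM in 5xFAD/D-45113 mice and 45.1 CPM in 5xFAD/Veh mice, with a log2 fold change of -0.19 (adjusted p = 0.693).

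Htr2c encodes the 5-HT2C receptor, which couples to Gq and is very abundant in the choroid plexus. Its level was 41.6 to 203 CPM (median 74.5) in 5xFAD/D-45113 mice and 21.5 to 65.9 CPM (median 42.6) in 5xFAD/Veh mice. The highest values were in 5xFAD/D-45113 mice 2M and 1M, and the ranges overlapped. The log2 fold change was 1.15 ± 0.30 (SE; edgeR, adjusted p = 0.0280). The score of 20 choroid plexus markers was -2.1 to 3.2 in 5xFAD/D-45113 mice and -2.70 to 0.47 in 5xFAD/Veh mice, and with it as a covariate the Htr2c value was 0.77 (adjusted p = 0.110). This score did not pass between the 2 groups (exact permutation test, adjusted p = 0.212). The summed level of the 20 markers was 340.0 to 9598 CPM in 5xFAD/D-45113 mice and 336 to 1503 CPM in 5xFAD/Veh mice, and 5 of the 20 were at 0 in some library. All 20 had a positive fold change and 2 were called higher. The Htr2c call was lost, with adjusted p between 0.0511 and 0.0953, when 5xFAD/D-45113 4F, 1M or 2M or 5xFAD/Veh 2F, 3F, 3M or 4M was left out. With other scores as a covariate the Htr2c value was 0.56 (excitatory neurons, adjusted p = 0.310) and 0.72 (thalamus, adjusted p = 0.593). Without the 3 mice of high habenula score it was 0.81 (adjusted p = 0.202).

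Htr7 encodes the 5-HT7 receptor, which couples to Gs and is strong in the thalamus as well as the hippocampus. Its level was 5.72 to 25.7 CPM (median 11.3) in 5xFAD/D-45113 mice and 4.62 to 8.87 CPM (median 5.71) in 5xFAD/Veh mice. The highest values were in 5xFAD/D-45113 mice 2M and 4F, both of high habenula score, and 2F and 3M lay within the 5xFAD/Veh range. The log2 fold change was 1.08 ± 0.28 (SE; edgeR, adjusted p = 0.0265). With the thalamic score as a covariate it was 0.24 (adjusted p = 0.847), and without the 3 mice of high habenula score it was 0.68 (adjusted p = 0.266). The summed level of the 12 thalamic markers was 225 to 1366 CPM in 5xFAD/D-45113 mice and 115 to 352 CPM in 5xFAD/Veh mice. All 12 had a positive fold change, 3 were called higher, and 3 were at 0 in some library. Leaving out 5xFAD/D-45113 4F or 2M or 5xFAD/Veh 1F or 4F also ended the call, with adjusted p between 0.0504 and 0.0915.

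Htr6 encodes the 5-HT6 receptor, which couples to Gs. Its level was 1.16 to 8.5 CPM (median 5.29) in 5xFAD/D-45113 mice and 6.51 to 12.3 CPM (median 8.65) in 5xFAD/Veh mice. Mouse 1M was lowest, and 7 of the 8 5xFAD/D-45113 mice lay below the lowest 5xFAD/Veh mouse. The log2 fold change was -0.77 ± 0.23 (SE; edgeR, adjusted p = 0.0450), close to the threshold. With the thalamic score as a covariate it was -0.60 (adjusted p = 0.476), and without the 3 mice of high habenula score it was -0.65 (adjusted p = 0.207). It also did not pass with the choroid plexus (adjusted p = 0.0838), striatal (0.0813) or excitatory neuron score (0.120). Without the 2 libraries of lowest total it was -0.75 (adjusted p = 0.108). The call was lost in 15 of the 32 fits that left out 1 library, with adjusted p between 0.05 and 0.101. The libraries concerned were 1F, 3F, 4F, 1M and 2M of the 5xFAD/D-45113 group, the same numbers of the 5xFAD/Veh group, 4F, 2M, 3M and 4M of the WT/D-45113 group, and 4F of the WT/Veh group.

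**Figure D3:**
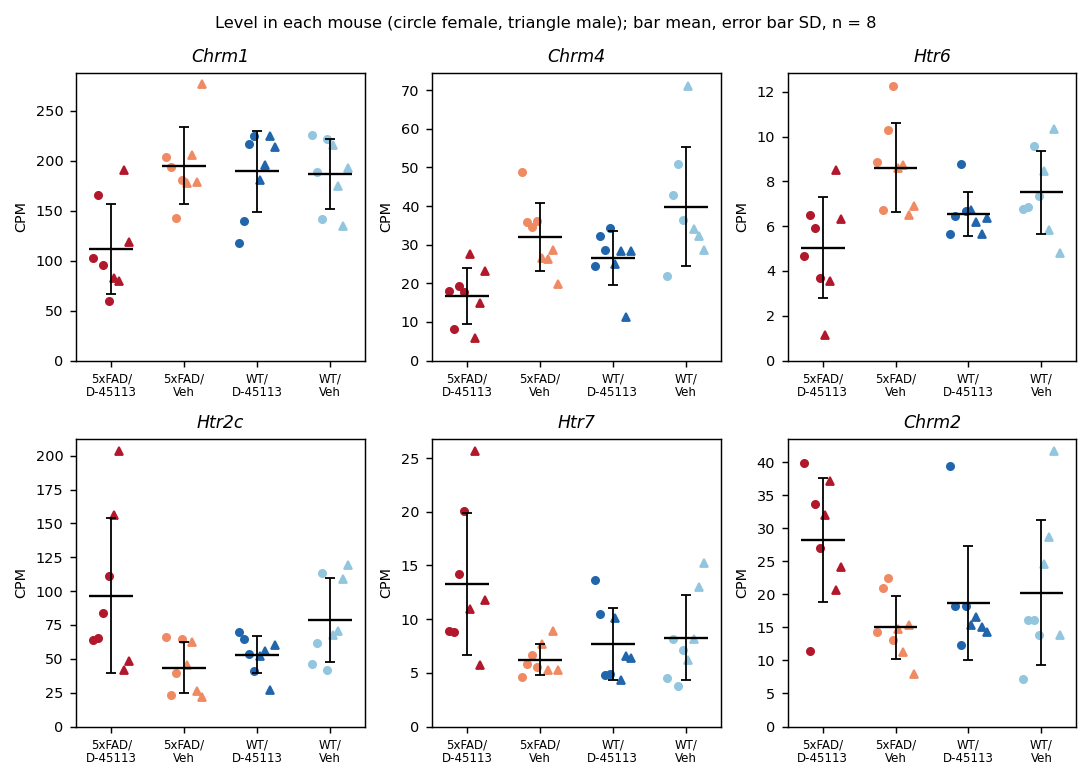
Level in CPM of Chrm1, Chrm4, Htr6, Htr2c, Htr7 and Chrm2 in each mouse (circles, females, and triangles, males), for 5xFAD/D-45113, 5xFAD/Veh, WT/D-45113 and WT/Veh mice from left to right. Bars are means and error bars SD of 8 mice. The top row shows the genes that fell in 5xFAD/D-45113 against 5xFAD/Veh mice, and the bottom row shows Htr2c and Htr7, which rose, and Chrm2, which did not pass.

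Of the other serotonin receptor genes, none passed in this comparison. Htr1b, a terminal autoreceptor gene, had 1.91 to 16.8 CPM (median 13.3) in 5xFAD/D-45113 mice and 10.8 to 35.5 CPM (median 19.8) in 5xFAD/Veh mice, with an adjusted p of 0.143. Htr2a, the cortical Gq-coupled receptor gene, showed -0.67 ± 0.27 on the log2 scale (SE; edgeR, adjusted p = 0.149), which was -0.29 (adjusted p = 0.517) without 5xFAD/Veh mouse 3F at 79.9 CPM. Htr1f, a Gi-coupled receptor gene, showed -0.80 ± 0.39 on that scale (adjusted p = 0.249). Htr1d, Htr5a, Htr3a, Htr1a, Htr4 and Htr5b had adjusted p between 0.262 and 0.762.

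Drd1 and Drd2 ranged widely from mouse to mouse. Drd1, the Gs-coupled receptor of direct-pathway striatal neurons, had 5.13 to 115 CPM (median 56.0) in 5xFAD/D-45113 mice and 31.2 to 171 CPM (median 96.9) in 5xFAD/Veh mice. Drd2, the Gi-coupled receptor of indirect-pathway striatal neurons, had 3.28 to 104 CPM (median 67.4) in 5xFAD/D-45113 mice and 24.3 to 187 CPM (median 113) in 5xFAD/Veh mice. The groups overlapped for both, and the 3 lowest 5xFAD/D-45113 mice were 2F, 2M and 3M, those of low striatal score. On the log2 scale Drd1 differed by -1.15 ± 0.47 (SE; edgeR, adjusted p = 0.163) and Drd2 by -1.12 ± 0.50 (adjusted p = 0.202). The summed level of the 12 striatal markers was 260.4 to 2264 CPM in 5xFAD/D-45113 mice and 669 to 3616 CPM in 5xFAD/Veh mice. Their 12 fold changes were all negative, 0 were called, and 1 marker was at 0 in some library. Drd5 and Drd4 had adjusted p of 0.754 and 0.509.

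None of the adrenergic receptor genes passed in the main fit of the same comparison. Adra2c, a Gi-coupled receptor gene, had 15.8 to 61.5 CPM (median 43.1) in 5xFAD/D-45113 mice and 38.6 to 78.0 CPM (median 60.6) in 5xFAD/Veh mice, a log2 difference of -0.52 ± 0.20 (SE; edgeR, adjusted p = 0.126). Adra1d, a Gq-coupled receptor gene, had 7.90 to 50.2 CPM (median 23.3) in 5xFAD/D-45113 mice and 33.4 to 86.8 CPM (median 42.8) in 5xFAD/Veh mice (adjusted p = 0.177). It was called lower with the striatal score as a covariate (-1.63, adjusted p = 0.0078). Without the 4 libraries of low striatal score it was also called (-1.56, adjusted p = 0.0308). In 19 of 21 settings other than leaving out 1 library it was not called. Adrb1 was among the steadiest genes, with 23.0 ± 2.47 CPM in 5xFAD/D-45113 mice and 24.0 ± 3.50 CPM in 5xFAD/Veh mice (SD, n = 8 each). Adra1b, Adra2a, Adra2b, Adrb3 and Adra1a had adjusted p between 0.356 and 0.983.

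In 5xFAD/D-45113 against WT/D-45113 mice, 1 of 30 receptor genes passed (3.33%), against 5.06% of all genes called in either direction and 1.35% called lower. An unadjusted p under 0.05 was found for 9 of 30, against 18.3% of all genes. The gene called was Chrm1, with 60.1 to 191 CPM (median 99.4) in 5xFAD/D-45113 mice and 118 to 225 CPM (median 205) in WT/D-45113 mice. The ranges overlapped, and the log2 fold change was -0.76 ± 0.18 (SE; edgeR, adjusted p = 0.00867). This comparison and the one above share the 5xFAD/D-45113 mice. Without the 3 mice of high habenula score the Chrm1 value was -0.60 (adjusted p = 0.0689), and with the score of 7 excitatory neuron markers as a covariate it was -0.46 (adjusted p = 0.0586). Leaving out 5xFAD/D-45113 3M added calls of Htr2c (0.98, adjusted p = 0.0437) and Htr7 (0.90, adjusted p = 0.0451), and leaving out WT/D-45113 1F added Htr7 (0.96, adjusted p = 0.0364).

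The genotype without the inhibitor was addressed by 5xFAD/Veh against WT/Veh mice. In edgeR 0 of 30 receptor genes passed, against 3.86% of all genes, and 3 of 30 had an unadjusted p under 0.05, against 11.1% of all genes. DESeq2 also called 0. Htr2c had 21.5 to 65.9 CPM (median 42.6) in 5xFAD/Veh mice and 42.1 to 120 CPM (median 68.8) in WT/Veh mice (-0.85 ± 0.30 on the log2 scale, SE; edgeR, adjusted p = 0.156). Htr1b had 10.8 to 35.5 CPM (median 19.8) in 5xFAD/Veh mice and 19.0 to 54.9 CPM (median 35.8) in WT/Veh mice (-0.80 ± 0.31, adjusted p = 0.232). Adra2b, a Gi-coupled receptor gene, had 0.325 to 3.08 CPM (median 1.68) in 5xFAD/Veh mice and 0.729 to 6.43 CPM (median 3.65) in WT/Veh mice (-1.06 ± 0.48, adjusted p = 0.379). Each of these pairs of ranges overlapped. Chrm1, with a median of 187 CPM in 5xFAD/Veh and 191 CPM in WT/Veh mice, had a log2 fold change of 0.06 ± 0.18.

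In WT/D-45113 against WT/Veh mice, 0 of 30 receptor genes passed in edgeR or in DESeq2, against 0.0239% of all genes in edgeR. An unadjusted p under 0.05 was found for 7 of 30 (23.3%), 1 higher and 6 lower, against 6.81% of all genes. Htr1d, a Gi-coupled receptor gene, had 1.36 to 6.02 CPM (median 3.51) in WT/D-45113 mice and 2.04 to 14.5 CPM (median 8.73) in WT/Veh mice (-1.27 ± 0.43, SE; edgeR, adjusted p = 0.536). Chrm3 had 44.4 to 77.5 CPM (median 58.0) in WT/D-45113 mice and 17.0 to 51.1 CPM (median 40.7) in WT/Veh mice (0.63 ± 0.23, adjusted p = 0.570). Htr1b had 10.4 to 31.7 CPM (median 17.6) in WT/D-45113 mice and 19.0 to 54.9 CPM (median 35.8) in WT/Veh mice (-0.84 ± 0.31, adjusted p = 0.594). The ranges overlapped in all 3. Chrm4 (-0.58, edgeR adjusted p = 0.655) and Adra2b (-1.08, adjusted p = 0.686) were also among the 7, so Chrm4 was lower here too, without a call. Drd2 (-1.07) and Drd1 (-0.98) completed the 7, and with the striatal score as a covariate their values were 0.02 each. The striatal score averaged -0.12 ± 1.03 in WT/D-45113 mice and 1.01 ± 0.60 in WT/Veh mice (SD, n = 8 each), with an adjusted p of 0.0429 by the exact permutation test. The score of 5 CA3 pyramidal cell markers averaged 0.47 in WT/D-45113 mice and -0.32 in WT/Veh mice (exact test, adjusted p = 0.0429), and 6 of 7 excitatory neuron markers had a positive fold change.

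The difference between genotypes in the effect of D-45113 was tested as an interaction, which no receptor gene passed in edgeR (0 of 30, and 0 of all genes). An unadjusted p under 0.05 was found for 7 of 30 (23.3%), against 9.51% of all genes. The values furthest from 0 by their p were those of Htr2c (1.72 ± 0.43, SE; edgeR, adjusted p = 0.312), Chrm1 (-0.82 ± 0.26, adjusted p = 0.333) and Htr7 (1.19 ± 0.40, adjusted p = 0.363). DESeq2 called 1, Htr2c (adjusted p = 0.0325). The calls in 5xFAD mice are therefore not shown by edgeR to differ from the effect in WT mice. Between females and males, 0 of 30 receptor genes passed in edgeR or DESeq2, against 0.0598% of all genes in edgeR. Htr4 alone had an unadjusted p under 0.05, as did 4.62% of all genes (-0.44 ± 0.20 for females against males, adjusted p = 1.00).

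The receptor genes varied together in sets across the 32 mice. As log2 CPM with each group's mean removed, Drd1 and Drd2 had r = 0.92, Chrm4 had r = 0.89 with Drd1 and 0.84 with Drd2, and Htr1b and Htr1d had r = 0.84 and 0.82 with Drd2. A second set joined Chrm1 with Adra1d (r = 0.80), Htr3a (0.79) and Htr1a (0.77). Chrm2 ran against Htr3a (r = -0.72) and Chrm1 (-0.66). These are descriptions over 435 pairs of genes in the same libraries.

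Against marker scores, 240 relations of a receptor gene with a list were computed over 32 mice, with the smallest p the permutations can give being 1e-05. Drd1 followed the striatal score with r = 0.97 and rho = 0.96, and Drd2 with r = 0.97 and rho = 0.95 (permutation p = 1e-05 and adjusted p = 0.00024 for each r). Within the 4 groups, r was 0.96 to 0.99 for Drd1 and 0.96 to 0.99 for Drd2. Chrm4 had r = 0.86 with the striatal score (0.80 to 0.95 within groups), Htr1d 0.82 and Htr1b 0.78. The relations stayed when the 2 libraries furthest from the median score were left out, with r of 0.96 for Drd1, 0.97 for Drd2 and 0.81 for Chrm4.

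Other receptor genes followed other lists. Htr7 had r = 0.80 and rho = 0.80 with the thalamic score (0.71 to 0.94 within groups, 0.75 without the 2 furthest libraries, adjusted permutation p = 0.00024). Chrm3 had r = 0.88 and Chrm1 r = 0.76 with the excitatory neuron score, and within groups these were 0.79 to 0.91 and 0.34 to 0.98. Htr4 had r = 0.84 with the score of 8 dentate gyrus granule cell markers, and Htr1a had r = 0.80 with that of 5 CA1 pyramidal cell markers. Htr2c had r = 0.57 with the choroid plexus score (0.14 to 0.76 within groups, adjusted permutation p = 0.0123) and r = -0.68 with the excitatory neuron score. The part of these scores in the differences between groups was not tested beyond the fits with a score as a covariate.

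**Figure D4:**
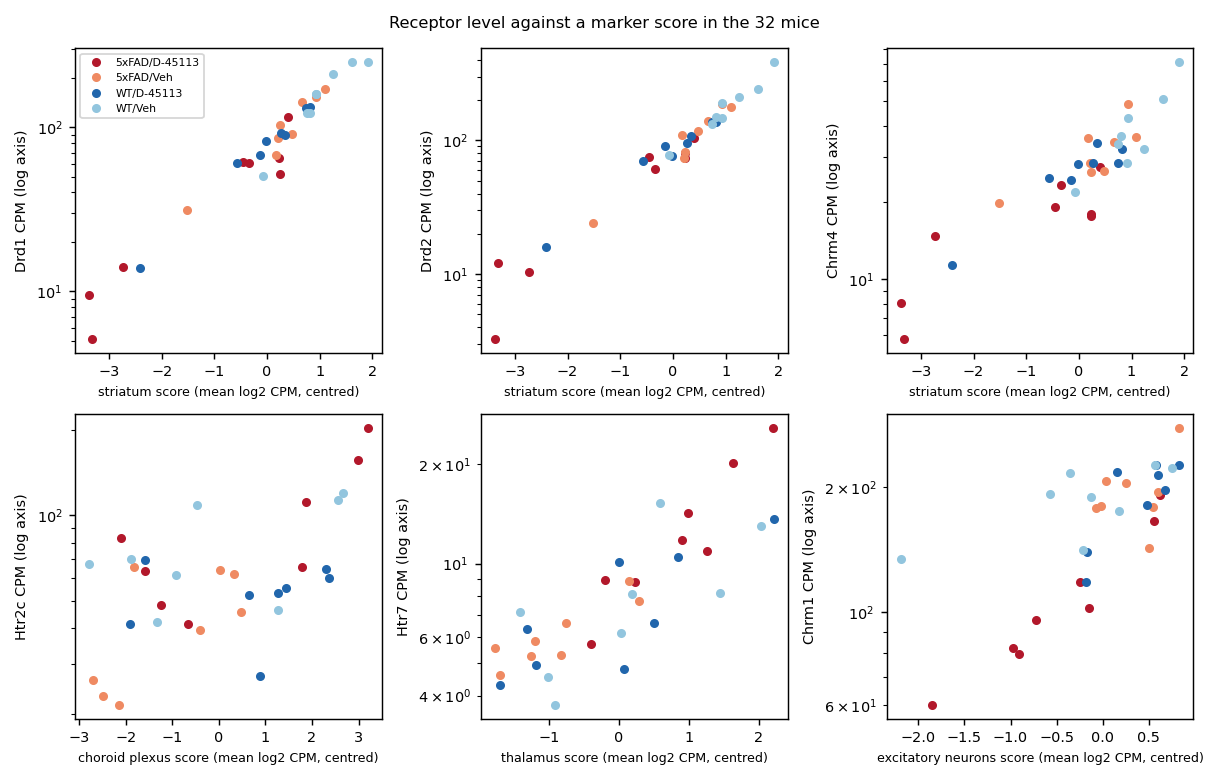
Level in CPM (log axis) of Drd1, Drd2 and Chrm4 against the striatal marker score, and of Htr2c, Htr7 and Chrm1 against the choroid plexus, thalamic and excitatory neuron scores, each point 1 of 32 mice coloured by group. A score is the mean of centred log2 CPM over the markers of a list. Drd1 and Drd2 lie along a line with r = 0.97 each, and Htr2c scatters most (r = 0.57).

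The 4 tested genes with the largest spread of log2 CPM over the 32 mice were Drd2 (SD 1.44), Drd1 (1.33), Adrb3 (1.22) and Htr5b (1.21). Drd2 ran from 3.28 CPM in 5xFAD/D-45113 mouse 2F to 386 CPM in WT/Veh mouse 1M, and Drd1 from 5.13 to 250 CPM. The genes most like Drd2 among 16722 others were Rasgrp2 (r = 0.98), Rasd2 (0.97), Pde1b, Syndig1l and Scn4b (0.96 each), and those most like Drd1 included Arpp21 (0.98), Adora2a (0.97), Serpina9 and Penk (0.96 each), as deviations from group means over 32 mice. Of these, Syndig1l, Adora2a and Serpina9 are on the striatal list. Htr5b had 1.21 to 12.2 CPM (median 4.31) in 5xFAD/D-45113 mice, 0.167 to 7.12 CPM (median 4.04) in 5xFAD/Veh mice, 0.463 to 4.50 CPM (median 3.65) in WT/D-45113 mice and 0.994 to 9.20 CPM (median 2.66) in WT/Veh mice. Its nearest genes were Nudt17 (r = 0.77), Wnt11, Fibcd1 (0.68 each), Galnt16 (0.67) and Tspan13 (0.64). Adrb3 had medians of 0.491, 0.392, 0.481 and 0.440 CPM in 5xFAD/D-45113, 5xFAD/Veh, WT/D-45113 and WT/Veh mice, and no gene passed r = 0.63 with it (Col6a4, then Mybpc1 at 0.61, 2210011C24Rik at 0.57, Pthlh at 0.56 and Zfp995 at 0.55).

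The genes that make, carry, break down and relay these transmitters were described from 5 lists, whose counts in 5xFAD/D-45113 against 5xFAD/Veh mice stand against 2.21% of all genes called higher and 1.75% called lower. In that comparison 1 of 9 tested genes of synthesis and transport passed: Ddc, the decarboxylase that makes dopamine and serotonin, had 9.25 to 31.4 CPM in 5xFAD/D-45113 mice and 6.5 to 10.1 CPM in 5xFAD/Veh mice (1.25 on the log2 scale; edgeR, adjusted p = 0.0054). Of 7 tested genes of breakdown and uptake, 2 were called higher and 1 was called lower. The 2 higher were Maob (0.77, adjusted p = 0.0074) and Maoa (0.37, adjusted p = 0.0375), both monoamine oxidases. Of 18 G protein subunit genes 0 passed, with a median log2 fold change of -0.05, against 0.01 over all genes.

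Of 16 genes of receptor kinases, arrestins, regulators of G protein signalling and phospholipase C beta, 2 fell in the same comparison, Rgs2 (-0.69, adjusted p = 0.0323) and Rgs4 (-0.86, adjusted p = 0.0391), which shorten G protein signals. Of 10 nicotinic acetylcholine receptor subunit genes, 3 rose: Chrna6 (3.03, adjusted p = 0.0089), Chrnb3 (2.94, adjusted p = 0.0223) and Chrna3 (2.44, adjusted p = 0.0377). Chrna6 had 0.367 to 5.13 CPM in 5xFAD/D-45113 mice and 0 to 0.812 CPM in 5xFAD/Veh mice. Chrna3 and Chrnb3 are also on the habenula list, whose 8 genes summed to 14.6 to 236 CPM in 5xFAD/D-45113 mice and 15.9 to 44.6 CPM in 5xFAD/Veh mice. In WT/D-45113 against WT/Veh mice, none of the genes of these 5 lists passed, and in 5xFAD/Veh against WT/Veh mice only Gnai2, a Gi subunit gene, did (0.35, adjusted p = 0.0153).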

How the data were processed

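RNA was extracted from the hippocampus of 32 mice (4 groups of 8). Novogene made and sequenced the libraries and aligned the reads, to mm10 per the submitters' processing notes. Aligner and counter: not given in the sources used here. Both tables deposited by the authors, of raw counts and of FPKM (normalized to gene length and library size), were used. Counts were tested with edgeR 4.0.16 in R 4.3.3 (TMM, filterByExpr with a minimum count of 10, robust glmQLFit and glmQLFTest, 1 model of the 4 groups) with Benjamini-Hochberg adjustment over 16723 genes and a threshold of 0.05. CPM was computed from the counts on TMM-scaled totals. FPKM was used for levels between genes. Marker scores are means of centred log2 CPM (prior count 2), compared by 2-sided exact permutation tests over mice. Correlations used 1e+05 permutations.

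The receptor genes and the 20 gene lists were chosen with earlier results of these data known. The receptor genes are named with their levels, and a few genes are not reported here. Values by group are given for genes called in a comparison, for the 4 with the largest spread, and for the 3 with the smallest p in each of 3 comparisons. Other genes given values in full were chosen after their values were seen. Alternatives tried were DESeq2 1.42.0, scaling by RLE size factors, limma 3.58.1 (voom on counts, trend on log2 FPKM with a pseudocount of 1 or 0.1), other filters, sex, replicate number and marker scores as covariates, each sex alone, only the groups compared, and each library left out. Labels give no litter or batch, so p-values measure the spread between the mice listed. On simulated counts for 5xFAD/D-45113 against 5xFAD/Veh over 16723 genes, the test recovered 30.9% of genes changed 1.5-fold, 58.6% changed 2-fold and 90.7% changed 4-fold. Counts were drawn independently for each gene, with 200 genes of any level changed. Genes that vary together with tissue makeup were not simulated, so these rates are not those of the receptor genes. Figures were drawn with matplotlib. The files' coordinates were compared with GENCODE M21 (GRCm38).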

Additional observations from a re-analysis of the deposited data

Results flagged for a closer look

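In 15 of 120 combinations of a receptor gene and a group, 1 mouse stood apart from the other 7 by Dixon's test on log2 CPM (critical value 0.526), where chance gives about 1 in 20. The combinations share libraries and genes that vary together, so they are not independent tests. The values below are given as CPM. In 5xFAD/D-45113 mice these were low values of Adra2c in 2M (15.8 CPM), Htr1b in 2F (1.91 CPM) and Htr6 in 1M (1.16 CPM). In 5xFAD/Veh mice they were low values of Drd2 (24.3 CPM) and Htr1d (0.651 CPM) in 4M and a high value of Htr2a in 3F (79.9 CPM). In WT/D-45113 mice, 3M was low for Chrm4 (11.4 CPM), Drd1 (13.8 CPM), Drd2 (16.01 CPM) and Htr5a (8.72 CPM), 3F was low for Htr5b (0.463 CPM) and high for Htr6 (8.79 CPM), and 1F was high for Chrm2 (39.4 CPM). In WT/Veh mice, 1F was low for Drd1 (50.6 CPM) and 3M was high for Adra2a (31.6 CPM). WT/D-45113 3M and 5xFAD/D-45113 2F and 2M are among the libraries of striatal score under -2.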

How the results depend on the processing

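Of 2314 refits of a named receptor gene, 2195 kept direction and side of the threshold, 86 lost a call, 25 gained 1 and 8 changed sign, none of these a called gene. Most of the 2314 were refits of genes that the main fit did not call, where staying uncalled counted as keeping the side. The 2195 therefore do not measure how steady the calls were. Only calls of the main fit could be lost, which in 5xFAD/D-45113 against 5xFAD/Veh were those of 5 genes. Htr6 lost its call in 15 of 32 fits without 1 library, Htr2c in 7, Chrm4 in 6, Htr7 in 4 and Chrm1 in 0. In 21 other settings the losses were 11, 10, 11, 11 and 6, in the same order of genes. For 5xFAD/D-45113 against 5xFAD/Veh, the count of 5 receptor genes was 2 with no filter on low counts, 3 with only the groups compared, 1 in females and 0 in males, and 0 with the choroid plexus, thalamic and striatal scores as covariates. With 1 score it was 2 (choroid plexus), 0 (thalamus) and 1 (excitatory neurons), and it was 0 without the 3 mice of high habenula score and 0 without the 2 lowest totals. With the striatal score the genes changed. Chrm4 (adjusted p = 0.170), Htr7 (0.0509) and Htr6 (0.0813) lost their calls, while Chrm2 (0.0226) and Adra1d (0.0078) gained them. Leaving out each library gave a count of 1 to 6, with 1 without 5xFAD/D-45113 4F or 2M, 2 without 5xFAD/Veh 1F, 3F or 4F and 3 without 5xFAD/D-45113 1M. DESeq2 gave 6 and voom 4. The same replicate number did not pair the mice (17 of 48 pairs had r over 0.1, median 0.05), and with a replicate block the count was 4, Htr7 having an adjusted p of 0.0522.

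For 5xFAD/D-45113 against WT/D-45113, the count of 1 was 2 with DESeq2, 4 with 3 scores, 3 with the striatal score, 2 without the 4 mice of low striatal score, and 0 in females, in males, with the excitatory neuron score, without the 3 mice of high habenula score and without the 2 lowest totals. Leaving out each library gave 1 to 3. Htr2c was added with DESeq2 (0.86, adjusted p = 0.0409) and with 3 scores (0.80, adjusted p = 0.0447). Chrm3 was added as lower with 3 scores (-0.60, adjusted p = 0.0191) and with the striatal score (-0.77, adjusted p = 0.0226). Adra1d was added as lower with 3 scores (-1.35, adjusted p = 0.0099) and with the striatal score (-1.62, adjusted p = 0.0026). Without the 4 mice of low striatal score it was also added (-1.58, adjusted p = 0.0323). For 5xFAD/Veh against WT/Veh the count of 0 was 1 in males and 1 (Htr1b, adjusted p = 0.0482) without the 4 mice of low striatal score. The interaction count of 0 was 1 with DESeq2 and 1 (Chrm2, 2.04, adjusted p = 0.0438) in males. The signs that changed were for WT/D-45113 against WT/Veh those of Drd2 (0.0469 with 3 scores, 0.0162 with the striatal score) and Drd1 (0.0026 and 0.0153), for 5xFAD/Veh against WT/Veh that of Drd1 (0.0435 and 0.0315), for 5xFAD/D-45113 against WT/D-45113 that of Chrm3 (0.000888 with the excitatory neuron score), and for the interaction that of Chrm2 (-0.0468 in females). The cause was not tested. Score covariates, single-sex fits and left-out libraries also reduce the residual degrees of freedom. Depth limits Drd4 and Adrb3, which were at 0 in 2 and 6 libraries.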
